A study of Mus musculus with 60 samples.

Results

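The 10 genes described here mark the mural cells of blood vessels, the pericytes and smooth muscle cells that wrap the endothelial tube. They are Acta2, Tagln, Myl9, Myh11, Cnn1, Vtn, Pdgfrb, Rgs5, Kcnj8 and Notch3. They were taken by symbol, through GENCODE release M21, from a table of 18088 genes measured in mouse prefrontal cortex, and all 10 were in the table. RNA was measured on postnatal day 25 in C57BL/6J mice of both sexes. Het mice were heterozygous for Grin2b+/C456Y, an allele of the gene for the NMDA receptor subunit GluN2B, and were set against wild type (WT) mice. Pups took up fluoxetine, lithium or vehicle in their mothers' milk from day 3 to day 24. Fluoxetine is an antidepressant that blocks the uptake of serotonin, and lithium is used as a mood stabiliser. The groups were Het fluoxetine, Het lithium, Het vehicle, WT fluoxetine, WT lithium and WT vehicle, with 10 libraries each, 5 from females and 5 from males, 60 in all. A library is named below by its group, sex and replicate number. The labels do not say whether replicates are separate animals or litters, so p-values measure the spread between these samples, and the drug came through the mother.

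Smooth muscle cells surround arteries and arterioles and contract to set blood flow, whereas pericytes sit on capillaries and help to maintain the blood-brain barrier. Endothelial cells release the ligand PDGF-B, which recruits mural cells through the receptor PDGFR-beta, and Jagged and Delta ligands on neighbouring cells act on the Notch3 receptor of mural cells. In smooth muscle, serum response factor (SRF) and its partner myocardin bind CArG boxes, written CC, then A or T bases, then GG, to drive the contractile genes. Acta2 encodes smooth muscle alpha-actin, Tagln transgelin, Myl9 a regulatory myosin light chain, Myh11 smooth muscle myosin heavy chain and Cnn1 calponin. Vtn encodes the secreted protein vitronectin, Rgs5 a regulator of G protein signalling, and Kcnj8 the pore subunit of an ATP-sensitive potassium channel.

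The contractile genes lie on GRCm38 at chr19:34241090-34255590 (Acta2, minus strand, ENSMUSG00000035783), chr9:45929619-45936058 (Tagln, minus strand, ENSMUSG00000032085), chr2:156775420-156781658 (Myl9, plus strand, ENSMUSG00000067818), chr16:14194535-14291372 (Myh11, minus strand, ENSMUSG00000018830) and chr9:22099216-22109630 (Cnn1, plus strand, ENSMUSG00000001349). The others lie at chr11:78499091-78502324 (Vtn, plus strand, ENSMUSG00000017344), chr18:61045150-61085061 (Pdgfrb, plus strand, ENSMUSG00000024620), chr1:169655501-169695813 (Rgs5, plus strand, ENSMUSG00000026678), chr6:142564837-142571614 (Kcnj8, minus strand, ENSMUSG00000030247) and chr17:32120820-32166852 (Notch3, minus strand, ENSMUSG00000038146). All are protein-coding genes. Tagln overlaps Pcsk7 and the antisense gene Gm48529 on the opposite strand, and Notch3 overlaps the antisense gene Gm17276. The sources used here do not state whether reads were counted by strand, so values of Tagln and Notch3 are uncertain to that extent. Pcsk7 averaged 747 normalised read counts, above Tagln, while both antisense genes averaged under 50.

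Levels spanned a wide range between the genes. Per kilobase of exon, Rgs5 was the highest with a mean of 879 normalised read counts over the 60 libraries, followed by Vtn with 832. Next per kilobase of exon came Myl9 at 293, Acta2 at 168 and Pdgfrb at 143. Tagln had 98.2 per kilobase, Notch3 76.0, Kcnj8 47.2 and Myh11 42.4. Cnn1 was far below the rest at 5.13 per kilobase and rested on 3 to 41 reads per library, so it was the least precisely measured gene. All 10 genes passed the filter on low values, a normalised read count of at least 10 in at least 5 libraries.

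Promoter sequences were taken from RefSeq (GRCm38.p6) as the 250 bases before the start of transcription, and the sequences of 7 of the 10 genes, without Tagln, Myh11 and Pdgfrb, were used. Acta2 and Myl9 are shown because they are the contractile genes in which a CArG-like box was found, and Rgs5 because its values followed those of the contractile genes least. Capitals mark each run of CC, 6 bases with at most 1 G or C, and GG, a pattern that reads alike on both strands. The windows are chr19:34255374-34255623 on the minus strand for Acta2, chr2:156775214-156775463 on the plus strand for Myl9 and chr1:169655251-169655500 on the plus strand for Rgs5. The starts are those of RefSeq, and the Acta2 and Myl9 windows reach into the GENCODE gene spans given above. Both marked runs of Acta2 lie within its span.
Acta2: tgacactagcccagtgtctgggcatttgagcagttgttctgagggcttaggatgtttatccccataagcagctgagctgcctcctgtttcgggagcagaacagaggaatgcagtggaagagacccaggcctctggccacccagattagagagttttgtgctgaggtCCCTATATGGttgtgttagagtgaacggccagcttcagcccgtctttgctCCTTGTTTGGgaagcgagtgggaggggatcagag
Myl9: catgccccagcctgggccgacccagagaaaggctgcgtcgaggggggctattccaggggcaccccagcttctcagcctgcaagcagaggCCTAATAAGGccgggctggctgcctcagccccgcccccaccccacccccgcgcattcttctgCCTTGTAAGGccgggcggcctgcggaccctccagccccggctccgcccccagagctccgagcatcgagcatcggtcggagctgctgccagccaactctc
Rgs5: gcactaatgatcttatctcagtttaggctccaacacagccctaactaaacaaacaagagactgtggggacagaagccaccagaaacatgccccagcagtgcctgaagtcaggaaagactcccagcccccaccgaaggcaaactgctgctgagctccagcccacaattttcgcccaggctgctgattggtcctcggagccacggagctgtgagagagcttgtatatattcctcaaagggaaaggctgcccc
Positions below are counted back from the RefSeq start of transcription. Acta2 held boxes at -84 to -75 and -34 to -25, each with 1 G or C in its core. Myl9 held a box with only A and T in its core at -161 to -152 and one with 1 G or C at -99 to -90. No such run was found in the windows of Cnn1, Vtn, Rgs5, Kcnj8 or Notch3. Of 32536 RefSeq promoter windows of the same length, 1.48% held a box with only A and T in the core and 8.59% held one with at most 1 G or C. A match describes letters and is not a binding site.

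Recovered depth was 23901635 to 37769417 reads per library. Markers of neurons, the cells that define the labelled cortex, were present in every library, 10 such genes summing to 275784 to 357843 normalised read counts. Some libraries stood apart. Of the 10 Het fluoxetine libraries, 9 (all but male 1), and WT vehicle female 2, averaged 1.78 to 3.15 on the log2(value + 1) scale over 16 pseudogenes, against at least 4.60 in the other 50 libraries. These pseudogenes were picked because they were called between Het and WT fluoxetine libraries, at a log2 fold beyond 2 either way. Libraries were then split at the widest gap in that average, so part of the separation follows from the choice. The spread around group means over all genes was widest in WT lithium male 5 (SD of log2 deviations 0.525) and WT lithium female 5 (0.431). Counts of the 10 genes are also given without WT lithium male 5, WT lithium female 5 and WT vehicle female 2 where they change. The main model has no term for the libraries low in pseudogenes. Such a term was added only in alternative analyses, so the main Het fluoxetine values are not adjusted for the state of these libraries.

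Across the 6 groups, WT vehicle libraries had the highest mean for 9 of the 10 genes, and WT lithium libraries the lowest mean for 7. Pdgfrb was highest in WT fluoxetine, at 874 ± 104 normalised read counts (SD, n = 10). Tagln and Cnn1 were lowest in Het lithium and Notch3 in Het fluoxetine. The ratio of the highest to the lowest group mean was smallest for Rgs5 and reached 1.66 for Acta2 and 1.97 for Cnn1. Neighbours in this order mostly lay closer together than single libraries spread. Of the 50 gaps between adjacent group means, 1 exceeded the pooled SD of its groups, that of Acta2 between WT vehicle and Het vehicle. This sets gaps against the spread of libraries and does not test whether groups differ. By limma that Acta2 difference was not called (adjusted p = 0.419). The limma F-test for any difference among the 6 groups called 9 of the 10 genes at a Benjamini-Hochberg adjusted p below 0.05, where 56.6% of the 17810 genes tested were called. Cnn1 missed the threshold at an adjusted p of 0.0522.

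**Figure D1:**
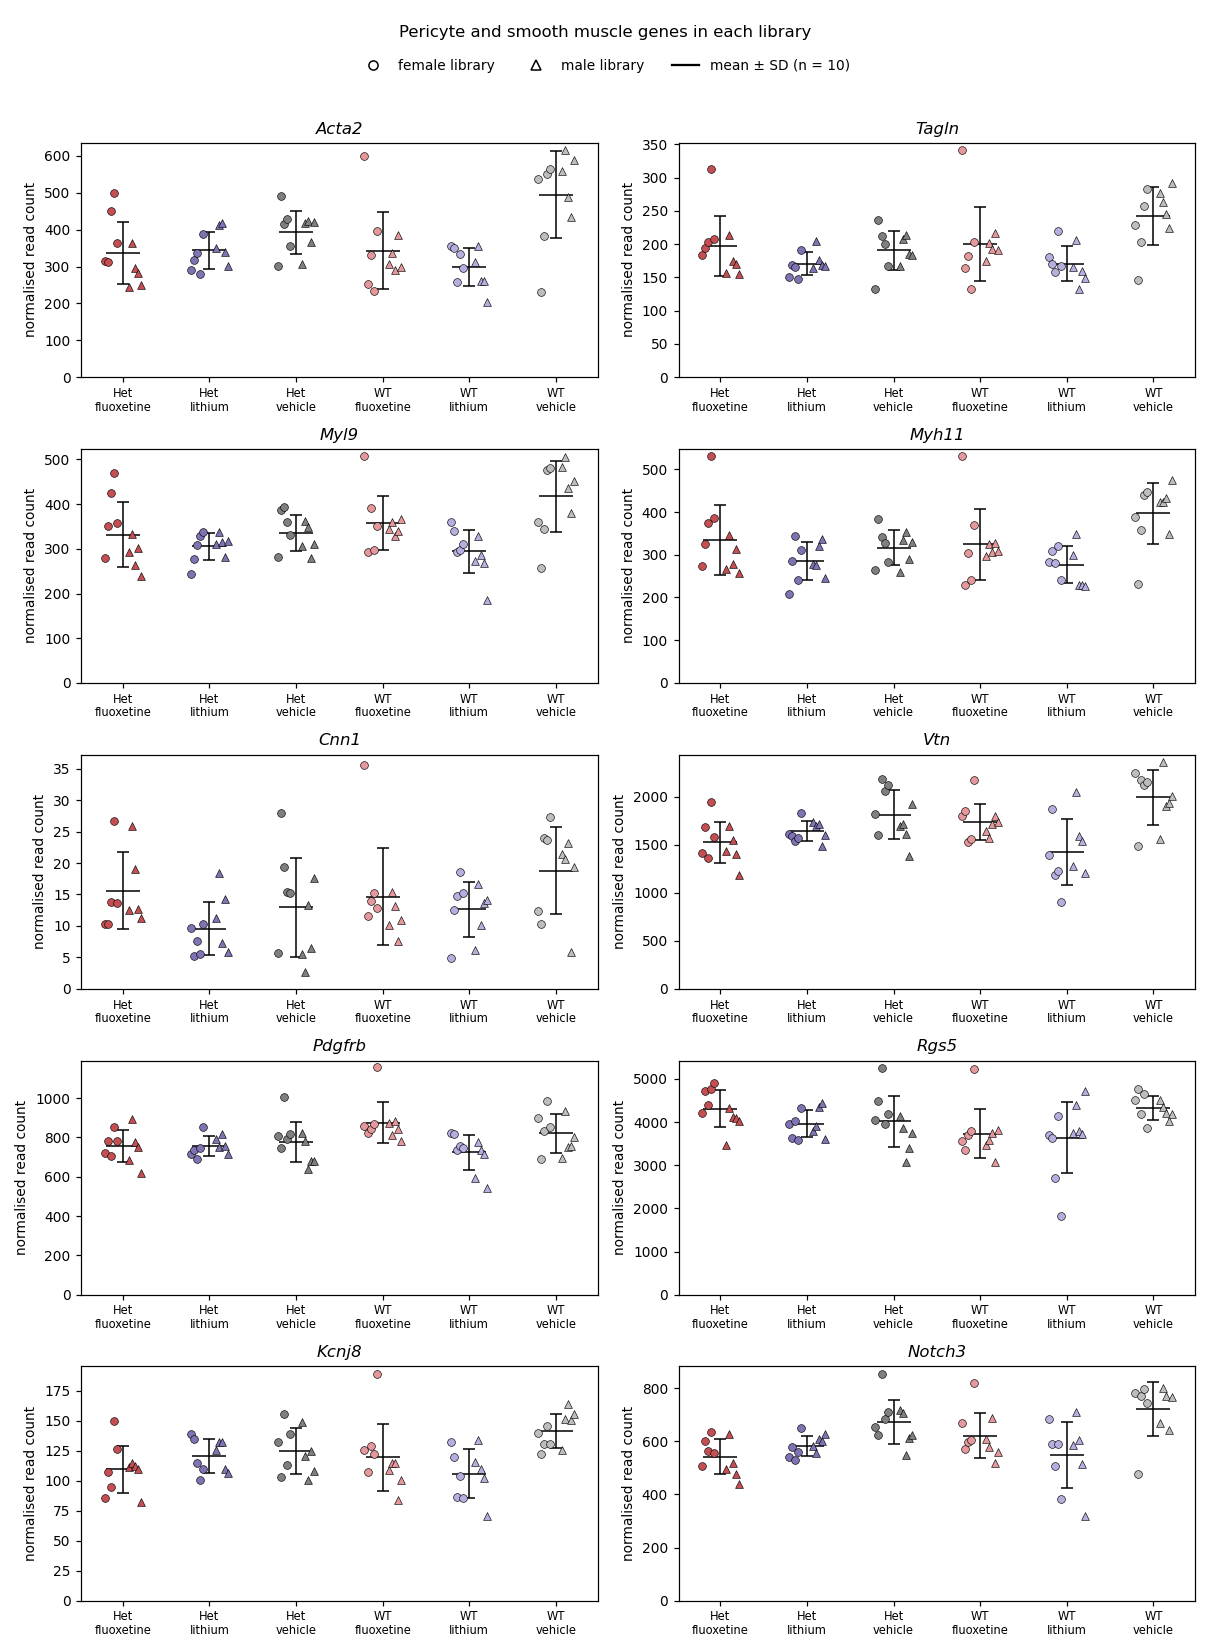
Normalised read count (y axis, linear, from 0) of each of the 10 genes in each of the 60 libraries, by group on the x axis. Circles are female and triangles male libraries, and lines give mean ± SD (n = 10). WT vehicle libraries have the highest mean in 9 panels, with WT vehicle female 2 as the lowest WT vehicle point in 8 of the 10.

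In WT mice, 9 of the 10 genes were lower after lithium than after vehicle. The contractile genes Acta2, Tagln, Myl9 and Myh11 were 0.616 to 0.712 times their vehicle level. The non-contractile genes Vtn, Kcnj8, Notch3, Rgs5 and Pdgfrb were 0.703 to 0.883 times theirs. None was higher. Over all genes tested 19.2% were called in this comparison, and 9.87% of all genes tested were lower. The median log2 fold of the 10 genes was -0.49, against 0.00 for all genes tested. Bulk RNA cannot tell fewer mural cells from less of these transcripts per cell.

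Acta2 ranged from 203 to 356 normalised read counts in WT lithium libraries, with a median of 304, against 230.2 to 615 in WT vehicle libraries, with a median of 544. The overlap came from WT vehicle female 2 alone: the next lowest WT vehicle library had 382, above all 10 lithium libraries. The fitted log2 fold was -0.70 (SE 0.13, limma adjusted p = 0.000233), and all 10 lithium libraries lay under the vehicle mean of their sex. Tagln, an actin-binding protein of the contractile apparatus, ranged from 132 to 219 with a median of 167 in WT lithium libraries, against 146 to 292 with a median of 251 in WT vehicle libraries. Its log2 fold was -0.49 (SE 0.11, adjusted p = 0.00155), again with 10 of 10 lithium libraries under the vehicle mean, while the groups overlapped.

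Myl9, whose product is phosphorylated to start contraction, ranged from 184 to 359 in WT lithium libraries (median 295) and from 258 to 505 in WT vehicle libraries (median 443). Its log2 fold was -0.50 (SE 0.10, adjusted p = 0.000259). Myh11, the motor protein itself, ranged from 227 to 349 in WT lithium libraries (median 281) and from 232 to 476 in WT vehicle libraries (median 423), a fold of -0.51 on the log2 scale (SE 0.12, adjusted p = 0.0016). For both genes all 10 lithium libraries were under the vehicle mean of their sex and the ranges overlapped. Cnn1, a thin-filament protein, averaged 12.7 ± 4.40 in WT lithium and 18.8 ± 6.94 in WT vehicle (SD, n = 10 each). Its log2 fold of -0.51 had an SE of 0.27 and did not pass the test (adjusted p = 0.183).

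**Figure D2:**
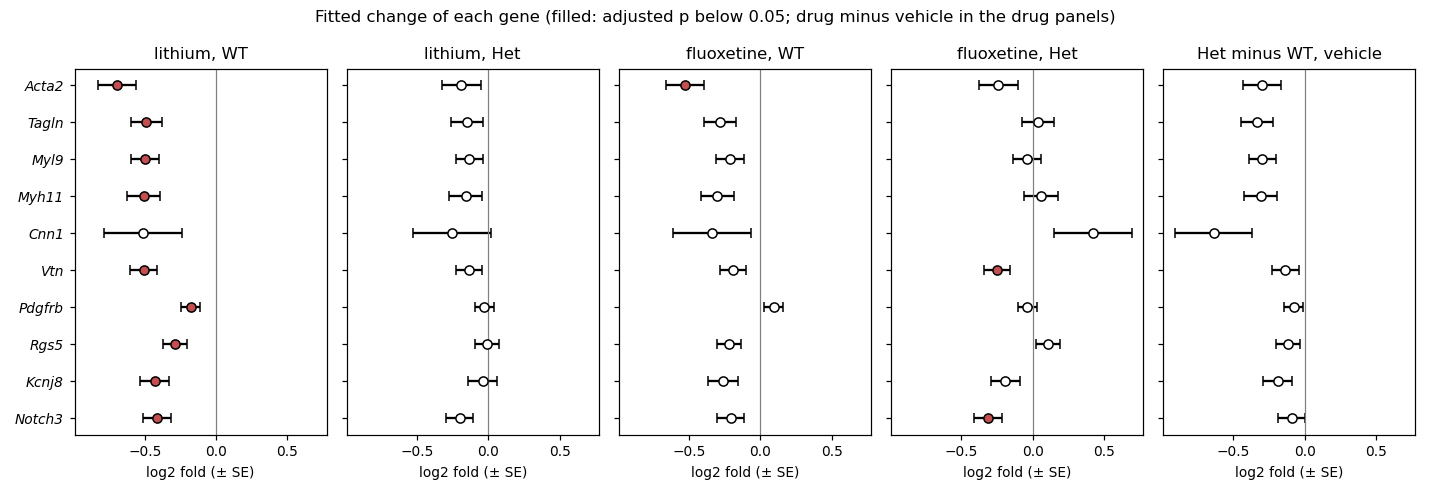
Fitted log2 fold of each gene on the x axis, with bars of 1 SE, in the 5 comparisons with a vehicle group. Filled points have an adjusted p below 0.05. In WT lithium 9 points are filled, all left of 0, and in Het lithium none.

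Among the non-contractile genes Vtn differed most. It ranged from 904 to 2051 normalised read counts in WT lithium libraries (median 1339) and from 1486 to 2363 in WT vehicle libraries (median 2063). The log2 fold was -0.51 (SE 0.09, adjusted p = 0.000132), with 9 of 10 lithium libraries under the vehicle mean of their sex and WT lithium male 2 above it. Kcnj8 ranged from 70.5 to 134 in WT lithium libraries (median 107) and from 122 to 164 in WT vehicle libraries (median 143), a log2 fold of -0.43 (SE 0.10, adjusted p = 0.00238). Its 10 lithium libraries were all under the vehicle mean, though the groups overlapped.

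Notch3, the receptor that maintains arterial smooth muscle, ranged from 320.1 to 711 in WT lithium libraries (median 588) and from 475 to 799 in WT vehicle libraries (median 768). Its log2 fold was -0.42 (SE 0.10, adjusted p = 0.00179). Rgs5, which is strongly expressed in brain pericytes, ranged from 1827 to 4707 in WT lithium libraries (median 3744) and from 3860 to 4768 in WT vehicle libraries (median 4275). Its log2 fold was smaller, -0.29 (SE 0.08, adjusted p = 0.0116), with 8 of 10 lithium libraries under the vehicle mean of their sex, and WT lithium female 5 held the lowest and male 5 the highest lithium value. Pdgfrb, the receptor for PDGF-B, ranged from 544 to 821 in WT lithium libraries (median 742) and from 692 to 986 in WT vehicle libraries (median 817). Its log2 fold was the smallest, -0.18 (SE 0.07, adjusted p = 0.0485), and its call was the least stable.

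Of these 9 calls, 6 (Acta2, Tagln, Myl9, Myh11, Vtn and Kcnj8) were made in all 10 alternative analyses and in all 20 fits that left out 1 library of either group. Rgs5 (adjusted p = 0.0921) and Notch3 (adjusted p = 0.0539) lost theirs when only the compared groups were fitted, and Pdgfrb lost its call in 4 alternatives and in 12 of the 20 fits. Without WT lithium male 5 the log2 fold of Pdgfrb was -0.14 (adjusted p = 0.131), and without WT lithium female 5 that of Rgs5 was -0.20 (adjusted p = 0.038). Without WT lithium male 5, WT lithium female 5 and WT vehicle female 2 together, 8 genes were still lower, at log2 folds of -0.74 for Acta2, -0.46 for Vtn and -0.34 for Kcnj8.

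In Het mice none of the 10 genes was called after lithium, where 0.983% of all genes were. All 10 log2 folds were negative, with a median of -0.14 against 0.00 over all genes. By limma 1 gene, Notch3, had an unadjusted p under 0.05, and edgeR called 0. Notch3 ranged from 530.2 to 650.5 normalised read counts in Het lithium libraries (median 580.5) and from 549 to 855 in Het vehicle libraries (median 670.4), and all 10 Het lithium libraries lay under the vehicle mean of their sex (log2 fold -0.20, SE 0.10, adjusted p = 0.343). Acta2 ranged from 280.0 to 419 in Het lithium libraries (median 339) and from 301 to 491 in Het vehicle libraries (median 416), a fold of -0.19 on the log2 scale (SE 0.13, adjusted p = 0.568). For both genes the groups overlapped. Vtn ranged from 1488 to 1832 in Het lithium libraries (median 1605.5) and from 1377 to 2180.1 in Het vehicle libraries (median 1769), with a log2 fold of -0.13 (SE 0.09). The 2 non-contractile genes with the smallest folds were Rgs5, at -0.01 (SE 0.08), and Pdgfrb, at -0.03 (SE 0.07). Myl9 had 9 of 10 Het lithium libraries under the vehicle mean of their sex, at a log2 fold of -0.13 (SE 0.10), and Kcnj8 had 5 of 10, at -0.04 (SE 0.10).

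The difference between the genotypes in the lithium effect was tested directly. The effect in Het minus that in WT was positive for all 10 genes, with a median log2 difference of 0.35 against 0.00 over all genes, but none was called, where 0.0674% of all genes were. By limma 7 of the 10 had an unadjusted p under 0.05, and edgeR called 0. In the lists followed below, the median was 0.38 for meningeal fibroblast and 0.23 for microglia markers. It was -0.10 for blood cell and -0.14 for choroid plexus markers, and -0.01 to 0.19 for the other lists. The differences were 0.51 for Acta2 (SE 0.19, adjusted p = 0.287), 0.37 for Vtn (SE 0.13, adjusted p = 0.254) and 0.39 for Kcnj8 (SE 0.15, adjusted p = 0.289). After lithium itself, Het and WT libraries gave no call among the 10 genes, where 0.0281% of all genes were called. Vtn had an unadjusted p under 0.05 there: it averaged 1638 ± 104 in Het lithium and 1424 ± 345 in WT lithium (SD, n = 10 each; log2 fold 0.24, SE 0.09, adjusted p = 0.317). The edgeR count was 0.

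After fluoxetine in WT mice 1 of the 10 genes, Acta2, was lower, where 8.43% of all genes were called and 4.08% were lower. Acta2 ranged from 233 to 599 normalised read counts in WT fluoxetine libraries (median 318) and from 230.2 to 615 in WT vehicle libraries (median 544). Of the 10 fluoxetine libraries 9 lay under the vehicle mean of their sex, and WT fluoxetine female 1 stood above it (log2 fold -0.53, SE 0.13, adjusted p = 0.00713). The median log2 fold of the 10 genes was -0.24, against 0.00 for all genes, 9 folds were negative and 8 genes had an unadjusted p under 0.05. Pdgfrb was the positive one, at 0.09 (SE 0.07, adjusted p = 0.438).

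The other 8 genes lay lower on average in WT fluoxetine without passing the test. Tagln ranged from 133 to 342 normalised read counts in WT fluoxetine libraries (median 192), against the vehicle median of 251, a log2 fold of -0.29 (SE 0.11, adjusted p = 0.103). Myh11 ranged from 230.3 to 532 in WT fluoxetine libraries (median 308), against the vehicle median of 423, a log2 fold of -0.30 (SE 0.12, adjusted p = 0.101). Kcnj8, whose channel couples metabolism to vessel tone, ranged from 83.6 to 189 in WT fluoxetine libraries (median 115), against the vehicle median of 143, a log2 fold of -0.26 (SE 0.10, adjusted p = 0.107). For each of these 3 genes 9 of 10 fluoxetine libraries lay under the vehicle mean of their sex, and the ranges overlapped. Myl9, Vtn, Rgs5 and Notch3 had log2 folds between -0.22 and -0.19, and Cnn1 one of -0.34 (SE 0.27).

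The number of calls in this comparison depended on WT vehicle female 2. Without it 5 genes were lower, Acta2, Tagln, Myl9, Myh11 and Notch3, with log2 folds of -0.64, -0.36, -0.28, -0.38 and -0.28. Without WT fluoxetine female 1 the count was 3, and without WT fluoxetine female 5 it was also 3. Leaving out WT vehicle female 2 with the WT lithium libraries female 5 and male 5 gave 7. With all libraries 1502 of 17810 genes were called, and 1215 to 1593 with 1 library left out. The number over all genes without those 3 libraries is not given here. In the fit to the compared groups alone Acta2 was at adjusted p = 0.069 and Rgs5 was called instead (log2 fold -0.22, adjusted p = 0.0287). The lithium and fluoxetine comparisons in WT use the same 10 vehicle libraries, as does the genotype comparison in vehicle.

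In Het mice 2 of the 10 genes were lower after fluoxetine, where 39.0% of all genes were called and 19.9% were lower, so the share among the 10 was at the level of all genes. Notch3 ranged from 440.0 to 635 normalised read counts in Het fluoxetine libraries (median 537) and from 549 to 855 in Het vehicle libraries (median 670.4). All 10 fluoxetine libraries were under the vehicle mean of their sex (log2 fold -0.31, SE 0.10, adjusted p = 0.00828). Vtn ranged from 1189 to 1941 in Het fluoxetine libraries (median 1489) and from 1377 to 2180.1 in Het vehicle libraries (median 1769), a fold of -0.25 on the log2 scale (SE 0.09, adjusted p = 0.0299). Both ranges overlapped. The call of Notch3 was kept with any 1 library left out, and that of Vtn was lost in 6 of 20 such fits, where its log2 fold was as small as -0.21. Since 9 of the 10 Het fluoxetine libraries belong to the set low in pseudogenes, the drug and the state of these libraries cannot be told apart beyond what Het fluoxetine male 1 and WT vehicle female 2 allow. With a term for that set the log2 folds were -0.02 for Notch3 and -0.01 for Vtn, and with correction for GC content -0.11 and -0.13, none of them called. That set was defined from pseudogenes differing between Het and WT fluoxetine libraries, so its term is not independent of this group.

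Rgs5 was the gene whose fluoxetine effect differed between the genotypes, with a log2 difference of 0.33 (SE 0.12, adjusted p = 0.0364), where 24.0% of all genes were called for this interaction. It averaged 4304 ± 426 normalised read counts in Het fluoxetine and 4017 ± 591 in Het vehicle, but 3732 ± 569.7 in WT fluoxetine and 4325 ± 284 in WT vehicle (SD, n = 10 each). The call was made in 30 of the 40 fits with 1 library left out, but not with GC correction or with either of the 2 library terms. Without WT lithium male 5, WT lithium female 5 and WT vehicle female 2, it was joined by Myh11 (log2 difference 0.44) and Tagln (0.40).

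Without drug, Het and WT libraries gave no call among the 10 genes, where 0.59% of all genes were called. All 10 log2 folds were negative, with a median of -0.24 against 0.00 for all genes. By limma 5 genes, the contractile ones, had an unadjusted p under 0.05, and edgeR called 0. In the marker lists followed below, all 20 meningeal fibroblast (median -0.24) and all 10 oligodendrocyte markers (-0.20) also had negative folds. Blood cell markers had a median of 0.24, and the other lists lay between -0.21 and 0.00. Tagln ranged from 133 to 236 normalised read counts in Het vehicle libraries (median 193) and from 146 to 292 in WT vehicle libraries (median 251), a log2 fold of -0.34 (SE 0.11, adjusted p = 0.197). Myl9 ranged from 280.2 to 393 in Het vehicle libraries (median 339.6) and from 258 to 505 in WT vehicle libraries (median 443), a log2 fold of -0.30 (SE 0.10, adjusted p = 0.182). For Tagln 9 of 10 and for Myl9 8 of 10 Het libraries were under the WT mean of their sex. Acta2 had a log2 fold of -0.30 (SE 0.13), Myh11 of -0.31 (SE 0.12) and Cnn1 of -0.64 (SE 0.27), at adjusted p = 0.419, 0.283 and 0.380. Without WT vehicle female 2 Myl9 was called (log2 fold -0.36, adjusted p = 0.0421), and without WT lithium male 5 and female 5 as well, Myl9 (adjusted p = 0.0184) and Tagln (-0.41, adjusted p = 0.038) were.

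After fluoxetine 2 of the 10 genes differed between Het and WT, where 39.5% of all genes were called. Pdgfrb was lower in Het, ranging from 617 to 895 normalised read counts in Het fluoxetine libraries (median 763) and from 784 to 1160 in WT fluoxetine libraries (median 851), a fold of -0.21 on the log2 scale (SE 0.07, adjusted p = 0.0103). Rgs5 was higher in Het, ranging from 3472 to 4908 in Het fluoxetine libraries (median 4269) and from 3078 to 5223 in WT fluoxetine libraries (median 3646), a fold of 0.21 on the log2 scale (SE 0.08, adjusted p = 0.0387). Of the Het libraries 9 of 10 were under the WT mean for Pdgfrb and 9 of 10 above it for Rgs5, and the ranges overlapped. Neither was called with GC correction, where the log2 folds were -0.05 for Pdgfrb and 0.04 for Rgs5, or with either library term. With 1 library left out Pdgfrb kept its call in 20 of 20 fits and Rgs5 in 7.

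Male and female libraries gave no call among the 10 genes, where 0.107% of all genes were called. Pdgfrb had the largest difference relative to its error, a log2 fold of -0.11 for male over female (SE 0.04, adjusted p = 0.913). It was the 1 gene with an unadjusted p under 0.05, and edgeR called 0. Whether the lithium effect in WT differed between the sexes was also tested. None of the 10 genes was called, where 9.64% of all genes were, and 2 genes, Myl9 and Rgs5, had an unadjusted p under 0.05 by limma. Rgs5 averaged 4077 ± 449 in male WT lithium libraries and 4255 ± 185 in male WT vehicle libraries, against 3201 ± 929 in female WT lithium and 4394 ± 367 in female WT vehicle libraries (SD, n = 5 each; log2 difference 0.44, SE 0.17, adjusted p = 0.073). Myl9 went the other way, with averages of 268 ± 52.7 in male WT lithium and 451 ± 47.9 in male WT vehicle libraries. In females it averaged 320.2 ± 28.6 in WT lithium and 384 ± 94.7 in WT vehicle libraries (log2 difference -0.54, SE 0.19, adjusted p = 0.0616). Rgs5 was 1827 in WT lithium female 5 and 4707 in WT lithium male 5, and Myl9 was 184 in WT lithium male 5. The test of the sexes in the lithium effect was not rerun without these libraries or under the alternatives.

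Other genes of smooth muscle and pericytes were followed in lists that did not include the 10. After lithium in WT mice 7 of 23 other smooth muscle genes were lower and 1 higher, where 9.87% of all genes were lower and 19.2% were called. Their median log2 fold was -0.22, against 0.00 for all genes. The lower ones included Pln, the phospholamban that restrains the calcium pump (-0.68, SE 0.18), Map3k7cl (-0.70, SE 0.19), the amine oxidase Aoc3 (-0.53, SE 0.16) and the calcium store protein Casq2 (-0.41, SE 0.13). Itga8, an integrin subunit, was higher (0.36, SE 0.08). Of 27 other pericyte genes 13 were lower and 1 higher, with a median of -0.26. Among them were the endothelin receptor Ednra (-0.40, SE 0.09), the cytochrome oxidase subunit Cox4i2 (-0.60, SE 0.15) and the sphingosine phosphate receptor S1pr3 (-0.26, SE 0.06), all lower. Without WT lithium male 5, WT lithium female 5 and WT vehicle female 2, the smooth muscle genes that were lower fell from 7 to 2. The pericyte genes that were lower fell from 13 to 6. The medians in that fit were -0.20 and -0.25, and the share of all genes lower in it is not given here.

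The signalling genes showed a mixed picture after lithium in WT mice. Of 22 PDGF and Notch genes 4 were lower and none higher (median log2 fold -0.14), where 19.2% of all genes were called and 9.87% were lower: the Notch targets Hey1 (-0.21, SE 0.05), Hey2 (-0.51, SE 0.17) and Nrarp (-0.21, SE 0.07) and the ligand Dll4 (-0.31, SE 0.10). Hey1 kept its call in all 10 alternatives, whereas Hey2 and Nrarp lost theirs in 2 and Dll4 in 3. Of 15 SRF and myocardin-family regulators 5 were lower and 4 higher (median 0.03). Srf itself was lower (-0.27, SE 0.07), as were Tgfb1 (-0.33, SE 0.08), its receptor Tgfbr2 (-0.24, SE 0.07) and the SRF cofactor Elk3 (-0.20, SE 0.06). The cofactors Mrtfa (0.21, SE 0.05), Mrtfb (0.23, SE 0.04) and Elk1 (0.10, SE 0.03) and the TGF-beta effector Smad3 (0.15, SE 0.04) were higher. Srf, Elk3, Mrtfa and Elk1 lost their calls in the fit to only the compared groups, and with GC correction the log2 fold of Srf was -0.13 (adjusted p = 0.0213). Without WT vehicle female 2 and the WT lithium libraries male 5 and female 5, 4 regulators were lower and 4 higher. The share of all genes called in that fit is not given here. In Het mice after lithium limma and edgeR both called 0 genes of these 4 lists, where limma called 0.983% of all genes, and 1 smooth muscle, 4 pericyte, 6 PDGF and Notch and 3 SRF-related genes had an unadjusted p under 0.05.

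**Figure D3:**
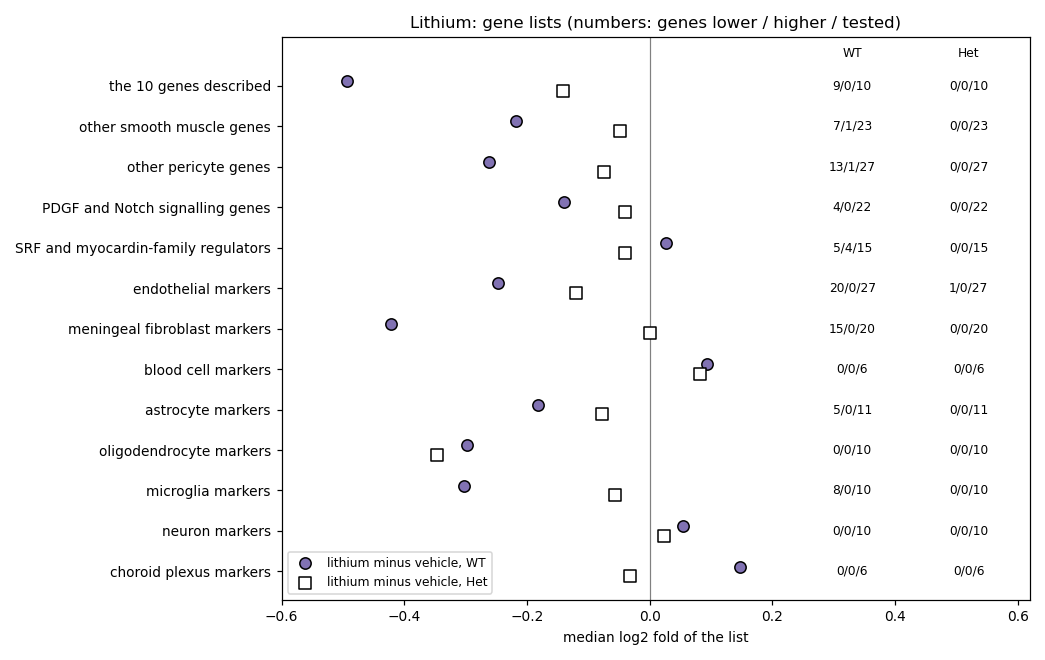
Median log2 fold after lithium (x axis) for the 10 genes and 12 other lists, in WT (filled circles) and Het (open squares), with counts of genes lower, higher and tested at the right. In WT the 10 genes have the lowest median, -0.49, followed by meningeal fibroblast markers at -0.42. Other smooth muscle and other pericyte genes lie at -0.22 and -0.26. The 10 genes and the lists were chosen with earlier results of these data known, so this order is not a test.

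Markers of other cell types moved in the same comparison. After lithium in WT mice 20 of 27 endothelial markers were lower (median log2 fold -0.25), where 9.87% of all genes were lower, led by the tight junction gene Cldn5 (-0.64, SE 0.09) and the cadherin Cdh5 (-0.46, SE 0.08). Their summed level was 31455 to 37913 normalised read counts in WT lithium libraries (median 34409), against 35861 to 43647 in WT vehicle libraries (median 41328). Of 20 meningeal fibroblast markers 15 were lower (median -0.42), among them Col1a2 (-0.55, SE 0.11) and Igf2 (-0.48, SE 0.10), and their sum was 6344 to 11614 in WT lithium libraries (median 8075), against 7763 to 13479 in WT vehicle libraries (median 11690.5). Lower markers also numbered 8 of 10 for microglia (median -0.30) and 5 of 11 for astrocytes (median -0.18). Limma called 0 of 10 oligodendrocyte (median -0.30), 10 neuron (0.05), 6 blood cell (0.09) and 6 choroid plexus markers (0.15). At an unadjusted p under 0.05 there were 4 oligodendrocyte and 1 neuron marker, and edgeR called 1 oligodendrocyte and 1 choroid plexus marker. No list gene was at 0 in all libraries of a group. The part of these cells in the values of the 10 genes was not tested. Without WT lithium male 5, WT lithium female 5 and WT vehicle female 2, 14 endothelial, 13 fibroblast, 6 microglia and 2 oligodendrocyte markers were lower. The share of all genes lower in that fit is not given here. In Het mice after lithium 1 of 27 endothelial markers, Tek, was lower, where 0.983% of all genes were called (-0.25, SE 0.07, adjusted p = 0.0437). With 1 library left out that held in 5 of 20 fits. At an unadjusted p under 0.05 there were 12 endothelial markers, and edgeR called 2. Limma and edgeR called 0 markers of the other 7 cell types, where at an unadjusted p under 0.05 there were 4 oligodendrocyte, 3 astrocyte, 1 microglia and 1 neuron marker.

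After fluoxetine in WT mice 4.08% of all genes were lower and 8.43% were called. Of 23 other smooth muscle genes 4 were lower: Casq2 (-0.44, SE 0.13), Cald1 (-0.23, SE 0.07), Map3k7cl (-0.56, SE 0.19) and Myocd, the gene for myocardin (-0.70, SE 0.21). Myocd is a very low gene at 1.80 normalised read counts per kilobase of exon, and edgeR did not call it. With 1 library left out Casq2 kept its call in 16 of 20 fits, Myocd in 13, Cald1 in 12 and Map3k7cl in 6. Of 27 other pericyte genes 3 were lower, among them S1pr3 (-0.31, SE 0.06) and Ednra (-0.29, SE 0.09). Pdgfb, the ligand of the Pdgfrb receptor, was the 1 of 22 PDGF and Notch genes called, a share near that of all genes that were lower, with a fold of -0.29 on the log2 scale (SE 0.06, adjusted p = 0.000777), called in all 10 alternatives and all 20 fits with a library left out. Of the 15 SRF-related regulators Tgfb3, Elk3 and Myocd were lower and Mrtfa higher. Endothelial markers were lower for 9 of 27 and higher for 1 beside them, and of 20 meningeal fibroblast markers limma and edgeR called 0, with 3 at an unadjusted p under 0.05. Leaving out WT lithium male 5, WT lithium female 5 and WT vehicle female 2 gave 13 endothelial, 2 fibroblast, 5 smooth muscle and 2 PDGF and Notch genes that were lower. With GC correction 14 endothelial markers, 6 SRF-related and 3 PDGF and Notch genes were lower. The share of all genes lower in each of these fits is not given here.

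After fluoxetine in Het mice 6 of 22 PDGF and Notch genes were lower and 3 higher, and 5 of 15 SRF-related regulators were lower and 1 higher, where 39.0% of all genes were called and 19.9% were lower. Pdgfb was lower, at -0.59 on the log2 scale (SE 0.06, adjusted p = 8.79e-11), and Pdgfc, another ligand of the PDGF family, was higher, at 0.40 (SE 0.06, adjusted p = 9.83e-07). Both were called in 9 of 10 alternatives, and the term for libraries low in pseudogenes gave an adjusted p of 0.107 for Pdgfb and of 0.0606 for Pdgfc. Adam10 (0.13, SE 0.04), which cleaves Notch receptors, and Rbpj (0.12, SE 0.04), the DNA-binding partner of activated Notch, were higher, and lost their calls with GC correction and with both library terms. Srf (-0.48, SE 0.07) and Tgfb1 (-0.48, SE 0.08) were lower and Elk1 was higher (0.16, SE 0.03), and these lost their calls with both library terms. Endothelial markers were lower for 13 of 27, against 2 of 23 other smooth muscle and 6 of 27 other pericyte genes. With GC correction 11, 1 and 4 were lower, and the share of all genes lower in that fit is not given here. All 13 endothelial calls were lost with the term for libraries low in pseudogenes, and Cldn5 alone kept its call with the Rps6-ps4 term.

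Within groups, the 10 genes varied together in 2 sets of 4, with Rgs5 and Cnn1 apart. Deviations from the 12 group means on the log2 scale were correlated over the 60 libraries, which share depth and normalisation and are described without a test. Acta2, Tagln, Myl9 and Myh11 had Pearson correlations of 0.75 to 0.89 with one another, the highest being Acta2 with Tagln. Vtn, Pdgfrb, Kcnj8 and Notch3 had correlations of 0.58 to 0.77, the highest being Pdgfrb with Notch3. Between the 2 sets the values were 0.21 to 0.58. Rgs5 reached 0.43 at most, with Kcnj8, and 0.01 to 0.23 with the 4 contractile genes. Rgs5 also had the lowest GC content of the 10, 41.1% against 49.6% to 59.6%. Over all genes, deviations from the mean of all libraries correlated with GC content at -0.49 in WT lithium male 5 and 0.34 in Het lithium female 4. The correlations between the 10 genes were not corrected for this, and its part in them was not tested. Cnn1, the gene with the fewest reads, reached 0.56 with Tagln.

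**Figure D4:**
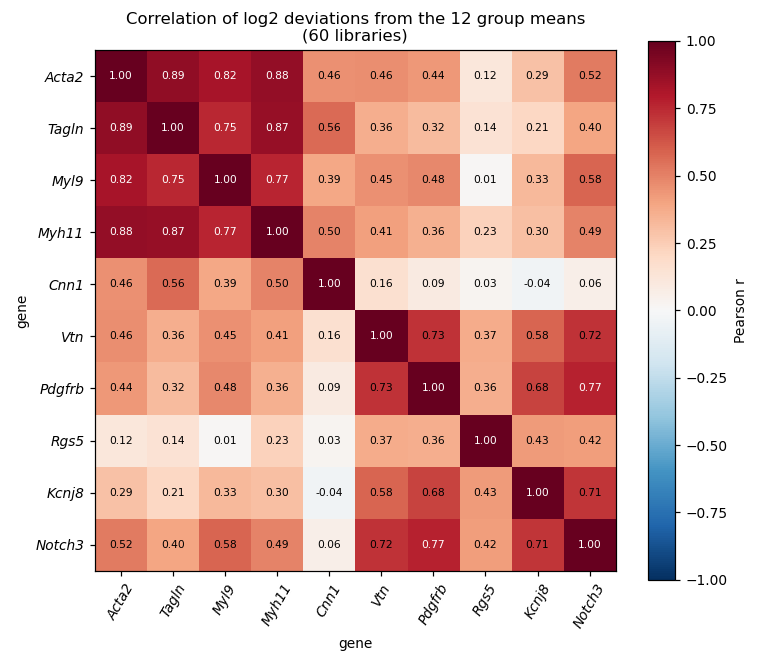
Pearson correlation (colour and number in each cell) of log2 deviations from the 12 group means over 60 libraries, for each pair of the 10 genes on both axes. The block of Acta2, Tagln, Myl9 and Myh11 lies at 0.75 to 0.89, and the Rgs5 row does not exceed 0.43 outside its own cell.

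Over all other genes the nearest patterns differed between the sets. Eln, the gene for elastin of the arterial wall, was the nearest gene outside the list for Acta2 (r = 0.72), Tagln (0.69) and Myh11 (0.68), and the second nearest for Myl9 (0.70) after Wscd1 (0.71). The tropomyosin gene Tpm2 followed for Acta2 (0.68) and Myh11 (0.65), and Fbln5, an elastic fibre protein, for Tagln (0.62). After these came Lmod1 for Acta2 (0.66) and Tagln (0.60), Fbln5 for Myh11 (0.62) and Tcirg1 for Myl9 (0.70). For Notch3 the nearest were the basement membrane genes Hspg2 (0.86) and Lamb2 (0.85) and the receptor Notch1 (0.83). For Kcnj8 they were the collagen gene Col4a2 (0.73), Eng (0.73) and Slco2b1 (0.73). Pdgfrb was nearest to Csf1r (0.81), Stab1 (0.81) and Pbxip1 (0.80), and Vtn to Slc13a3 (0.84), Fn1 (0.84) and Igfbp2 (0.82). Csf1r belongs to the microglia markers followed above and lies, like Pdgfrb, on chr18. Rgs5 had its nearest patterns in Itga1 (0.91), Vcam1 (0.90) and Slco1c1 (0.89), the last a thyroid hormone transporter of brain endothelium. For Cnn1 they were Tnfsf9, Zfp516 and Zbtb39, at 0.53 to 0.54.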

How the data were processed

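Prefrontal cortex RNA was sequenced from 60 libraries built with a strand-specific mRNA kit (the labels' protocols). The submitters' processing notes name GRCm38, Salmon 0.11.2, DESeq2 1.19.11 and R 3.6.0, with roles and counting settings not given in the sources used here. Deposited by the authors was 1 signal value per gene and library, termed a normalised read count in this text. Within a library the values were whole multiples of 1 step, as read counts divided by 1 size factor per library would be, and dividing by the step gave whole reads (within 0.001) for 100% of values. GENCODE M21 held 18077 of the 18088 gene identifiers.

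Genes reaching a value of 10 in 5 or more libraries (17810) were tested with limma 3.58.1 in R 4.3.3, using log2(value + 1) and its trend and robust options. A model of 12 group means (48 residual degrees of freedom) gave all contrasts, averaged over the sexes, with Benjamini-Hochberg adjustment over all genes. A gene was called at an adjusted p below 0.05. Shares of all genes called refer to this model with all 60 libraries. Fold changes on this scale understate changes of low genes. Alternatives were edgeR 4.0.16 on the recovered reads, TMM scaling, a pseudocount of 5, no filter, only the groups compared, a replicate block, GC correction, 2 library terms (the 10 libraries low in pseudogenes, or the 11 with no Rps6-ps4 read), 3 libraries left out, and each library left out in turn. The scripts were tested on simulated data.

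The 10 genes, the lists and the 3 libraries left out together were chosen with earlier results of these data known. All 10 genes are named. From each other list the called genes with the smallest p were eligible, at most 4 per direction and contrast, and for each gene the 3 most correlated genes outside the list, leaving out predicted genes and clone names.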

Additional observations from a re-analysis of the deposited data

Results flagged for a closer look

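Each gene was compared within each of the 12 groups of 5 libraries. In 12 of the 120 groups 1 library lay far from the other 4, where chance gives about 1 in 20. Values are normalised read counts. In Het fluoxetine female 4, Tagln was 312.8 (184 to 208 in the other 4) and Cnn1 26.6 (10.4 to 13.9). Kcnj8 was 82.5 in Het fluoxetine male 5 (109 to 115). Vtn was 1832 in Het lithium female 5 (1539 to 1607). Pdgfrb was 1006.5 in Het vehicle female 3 (747 to 819). In WT fluoxetine female 5, Pdgfrb was 1160 (823 to 867), Rgs5 5223 (3357 to 3798) and Kcnj8 189 (107 to 129). Cnn1 was 35.6 in WT fluoxetine female 1 (11.5 to 15.3) and 5.91 in WT vehicle male 4 (19.4 to 23.1). In WT vehicle female 2, Vtn was 1486 (2119 to 2249) and Notch3 475 (744 to 796). The cause was not tested.

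The fluoxetine effect on Rgs5 differed between the genotypes by the test of the interaction, with a log2 difference of 0.33 (Het effect minus WT effect). Over all genes 24.0% were called for this interaction. The Rgs5 call was lost with GC correction, with each library term and in 10 of 40 fits with 1 library left out.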

How the results depend on the processing

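Numbers here are how many of the 10 genes were called. Of 108 counts under 10 alternatives, 93 were within 1.5 times the count reported, and no called fold changed direction. The 93 include every count for lithium in Het, genotype in lithium, the lithium interaction and sex, where 0 was set against 0. With GC correction the count was 5 for fluoxetine in WT, and 0 for fluoxetine in Het, for genotype in fluoxetine and for the fluoxetine interaction. Each library term also gave 0 for those last 3 comparisons. Without WT lithium male 5, WT lithium female 5 and WT vehicle female 2 the count was 7 for fluoxetine in WT, 2 for genotype in vehicle, 4 for genotype in fluoxetine and 3 for the interaction. In the fit to only the groups compared it was 6 for lithium in WT and 4 for genotype in fluoxetine. The share of all genes called in each of these fits is not given here. The cause was not tested.

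With 1 library left out the counts were 8 to 9 for lithium in WT, 1 to 5 for fluoxetine in WT, 1 to 2 for fluoxetine in Het, 0 to 1 for genotype in vehicle, 1 to 2 for genotype in fluoxetine, 0 to 2 for the fluoxetine interaction and 9 to 10 for any difference among the groups. They were 0 in every such fit for lithium in Het, genotype in lithium, the lithium interaction and sex.

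With the replicate block the count for lithium in WT was 8, Pdgfrb losing its call (adjusted p = 0.056), and no other count changed. Same-numbered libraries did not vary together: over 330 pairs the mean correlation was 5.4e-05 and the lowest -0.34, and 8 of 60 libraries correlated best with their own number. Sex and the test of any difference were not run on only the groups compared. Cnn1 rested on 3 to 41 reads per library, and whether depth accounts for its missed calls was not tested.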
